A study of Mus musculus with 18 samples.

Results

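The 44 genes described here encode proteins that copy DNA or repair it, 30 from replication and 14 from repair. They were taken by symbol from the count tables of a pair of mouse mammary tumour cell lines, 168FARN and 67NR, and were 44 of the 24360 rows in each table. In the spelling of the tables, the replication genes were those of the helicase (MCM2, MCM3, MCM4, MCM5, MCM6, MCM7), of origin licensing (CDC6, CDT1) and helicase activation (MCM10, CDC45, GINS1, GINS2, GINS3), of the clamp and its loader (PCNA, RFC2, RFC3, RFC4, RFC5), of the polymerases and primase (POLA1, POLA2, PRIM1, POLD1, POLE), of nucleotide supply (RRM1, RRM2, TYMS) and of single-strand binding and strand maturation (RPA1, RPA2, FEN1, LIG1). The repair genes were BRCA1, BRCA2, PALB2, RAD51AP1, RAD54L and XRCC2 for homologous recombination, FANCD2 and FANCI for crosslinks, BLM and EXO1 for resection, CHEK1, ATM and ATR as checkpoint kinases, and MSH6. RNA-seq was performed on 3 genotypes of each line (WT cells, *Kmt2c* KO and *Kmt2d* KO), with 3 replicates of each genotype and 18 libraries in all. KO cells were sorted pools, made by transfecting a Cas9-GFP plasmid and 3 sgRNAs that target exon 1, so they were neither single clones nor cultures in which every cell need carry the same edit. The 168FARN WT columns were named as sgRNA controls and the 67NR WT columns simply as WT. Replicates of a line were collected 1 passage apart. The replicate number is read here as the collection that the 3 genotypes of a line shared. In fits with genotype alone, p-values therefore measure the spread between such collections. In fits that also hold the replicate number or a replicate 3 indicator, they measure the spread left between libraries.

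Before a cell divides, the ORC, *Cdc6* and *Cdt1* proteins load the MCM2-7 helicase on replication origins. *Cdc45*, *Mcm10* and the GINS proteins turn the helicase on, primase and the DNA polymerases make the new strands on the *Pcna* clamp that the RFC complex loads, and ribonucleotide reductase (*Rrm1*, *Rrm2*) and thymidylate synthase (*Tyms*) supply nucleotides. Homologous recombination mends broken or stalled forks through *Brca1*, *Palb2* and *Brca2*, with *Exo1* and *Blm* acting on DNA ends, *Fancd2* and *Fanci* on crosslinks, and *Atm*, *Atr* and *Chek1* as checkpoint kinases. Many of these genes are transcribed mainly from late G1 into S phase and are shared targets of E2F transcription factors. The repair list also held *Msh6*, which belongs to mismatch repair. In bulk cultures, fewer cells in S phase and less RNA of a gene per cell cannot be told apart.

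The gene counts of a library summed to 14359760 to 43427382 reads in 168FARN and to 40951775 to 79251530 reads in 67NR. All 44 genes passed the filter on low counts in both lines. Levels are given as CPM, reads of a gene relative to the library total after TMM scaling within a line. The mRNA of the targeted gene was not called lower in any KO pool. It was called higher for *Kmt2c* in 67NR (0.63, edgeR adjusted p = 0.0067) and, in the blocked fit (replicate number), for *Kmt2d* in 168FARN (0.66, edgeR adjusted p = 0.0062). *Kmt2c* lay between 46.9 and 96.7 CPM in 168FARN *Kmt2c* KO cells and between 44.7 and 113 CPM in WT cells. In 67NR it lay between 85.5 and 95.7 CPM against 54.6 to 63.1 CPM. It was also at 94.8 to 113 CPM in 67NR *Kmt2d* KO cells, so the higher level was not particular to the targeted pool. *Kmt2d* lay between 136 and 296 CPM in 168FARN *Kmt2d* KO cells against 104 to 160 CPM in WT cells, and in 67NR between 94.1 and 147 CPM against 83 to 112 CPM. Counts over a whole gene do not show small edits in exon 1, so these levels do not check the genotype. The paper checked the pools by sequencing the edited regions and by immunoblot, and reported less of the targeted protein in KO cells of both lines. Its share of mutant reads was lowest for *Kmt2c* in 67NR, and only the 168FARN *Kmt2d* KO pool was reported with all reads mutant.

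E2F factors bind variants of a short element, and 4 forms of it (TTTCCCGC, TTTCGCGC, TTTGCCGC and TTTGGCGC) were searched on both strands from 250 bases before to 50 bases after the transcription starts in RefSeq (GRCm38.p6). Promoters were found for 36 of the 44 genes, and 13 of the 36 (36.1%) held at least 1 match, compared with 2.6% of 27025 genes in the same table. The share was 11 of 25 replication genes (44%) and 2 of 11 repair genes (18.2%), the latter being *Brca2* and *Msh6*. The CCAAT box was present in 23 of 36 (63.9%, against 41.1% of all genes), and the cell cycle homology strings TTTGAA and TTCGAA in 7 of 36 (19.4%, against 21.7%). The stretches below, 60 bases each and all upstream of the start, show matches in genes whose levels are described in the following paragraphs. They are written on the strand of the gene, with the E2F strings in capitals.
*Cdc6*, chr11:98907987-98908046, plus strand: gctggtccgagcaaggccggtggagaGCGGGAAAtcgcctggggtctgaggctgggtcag
*Mcm5*, chr8:75109330-75109389, plus strand: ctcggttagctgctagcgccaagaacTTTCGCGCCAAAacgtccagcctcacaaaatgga
*Mcm6*, chr1:128359782-128359841, minus strand: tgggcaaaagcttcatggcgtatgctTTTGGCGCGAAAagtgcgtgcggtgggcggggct
*Gins3*, chr8:95633492-95633551, plus strand: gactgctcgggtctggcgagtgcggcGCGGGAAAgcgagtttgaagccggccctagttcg
*Brca2*, chr5:150522427-150522486, plus strand: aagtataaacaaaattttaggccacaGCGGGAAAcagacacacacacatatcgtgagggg

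In *Mcm5* and *Mcm6* a pair of matches on opposite strands overlapped and formed 1 run of capitals, whereas *Cdc6*, *Gins3* and *Brca2* each showed a single match read on the other strand. These matches describe letters and not binding.

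Over the 44 genes, gaps between collections were wider than those between genotypes. In 168FARN, replicate 3 of every genotype carried far more mRNA of nearly all of them than replicates 1 and 2. With genotype in the fit, 41 of 44 genes were higher and 1 was lower in replicate 3 (edgeR quasi-likelihood test, Benjamini-Hochberg adjusted p under 0.1 and absolute log2 fold change over 0.6), in a comparison in which 48.2% of 12253 genes were called, 22.4% higher and 25.9% lower. By list, 28 of 30 replication and 13 of 14 repair genes were higher. The median log2 fold change was 2.31 for replication and 2.08 for repair genes. Here replicate 3 was set apart by its number with earlier results of these data known. These p-values set 1 collection against 2 and count its 3 libraries as separate. They describe how far apart these collections were against the spread left between libraries, and do not replicate the difference.

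In 67NR the same collection number stood apart in the same direction. In replicate 3, 38 of 44 genes were higher and none was lower, where 28.7% of 13665 genes were called, 15.3% higher and 13.4% lower. These were 27 of 30 replication genes, with a median log2 fold change of 1.61, and 11 of 14 repair genes, with a median of 1.53. Summed over the 30 replication genes, 168FARN libraries held 975 to 1129 CPM in replicates 1 and 2 and 4892 to 5641 CPM in replicate 3. The 67NR libraries went from 890 to 1384 CPM to 3338 to 3492 CPM. For the 14 repair genes the sums were 231 to 310 CPM against 685 to 739 CPM in 168FARN, and 305 to 397 CPM against 639 to 764 CPM in 67NR. Neither list's sums overlapped between the collections in either line.

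**Figure D1:**
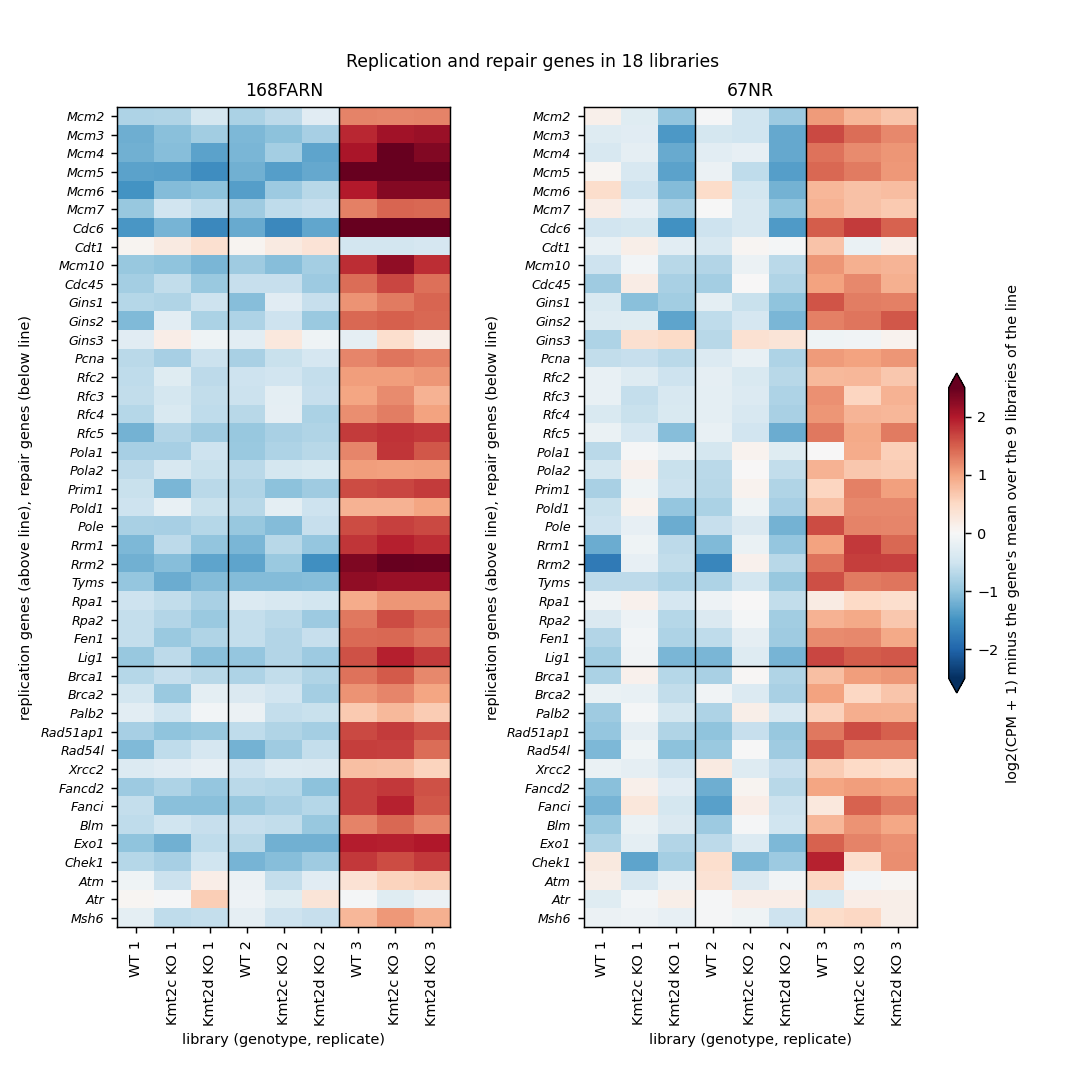
Levels of the 44 genes (rows, grouped by role) in the 9 libraries of 168FARN and of 67NR (columns, ordered by replicate and then by genotype), as log2(CPM + 1) minus the mean of that gene over the 9 libraries of the line. The columns of replicate 3 stand above the others for most rows in both lines, and *Gins3*, *Cdt1*, *Atm* and *Atr* are the rows that depart from this.

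*Cdc6* (mm9 chr11:98769115-98785254, plus strand), which recruits the helicase to origins, had 2.06, 2.5 and 54.4 CPM in replicates 1, 2 and 3 of 168FARN WT cells. *Kmt2c* KO cells had 2.73, 1.74 and 67.7 CPM, and *Kmt2d* KO cells had 1.73, 2.4 and 52.9 CPM. Its log2 fold change for replicate 3 was 4.74 ± 0.14 (SE, 9 libraries, edgeR adjusted p = 2.4e-11). In 67NR, WT cells had 7.34, 7.21 and 32.6 CPM, *Kmt2c* KO cells 7.65, 7.88 and 38.4 CPM and *Kmt2d* KO cells 3.09, 3.41 and 31.6 CPM, with a log2 fold change of 2.59 ± 0.17 (edgeR adjusted p = 6.4e-07). Every replicate 3 library was thus above every other library of its line.

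All 6 MCM2-7 genes were higher in replicate 3 of both lines, with a median log2 fold change of 3.22 in 168FARN and 1.59 in 67NR. These values are over the genotypes, and for *Mcm6* in 67NR the rise was smaller in WT cells. There WT cells were at 113, 116 and 149 CPM, *Kmt2c* KO cells at 58.4, 60.5 and 139 CPM and *Kmt2d* KO cells at 39, 36.2 and 143 CPM. *Mcm2* (chr6:88833469-88848774, minus strand) rose by 1.87 ± 0.09 in 168FARN (edgeR adjusted p = 1.4e-09), from 46.5 to 66.3 CPM in replicates 1 and 2 to 191 to 193 CPM in replicate 3. In 67NR its replicates 1 and 2 lay between 29.2 and 64.6 CPM and its replicate 3 between 96.5 and 125 CPM, a log2 fold change of 1.32 ± 0.12 (edgeR adjusted p = 4.3e-06). *Mcm5* (chr8:77633427-77652338, plus strand) had a wider range, at 8.79 to 11.5 CPM against 161 to 211 CPM in 168FARN. Its log2 fold change there was 4.18 ± 0.11 (edgeR adjusted p = 1.2e-11), against 1.97 ± 0.15 in 67NR (edgeR adjusted p = 1.6e-06).

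The 6 subunits form one ring, but their mRNA levels per length were far from equal. In replicates 1 and 2 of 168FARN, CPM per kb of exon was lowest for *Mcm5* (2.99 ± 0.27, SD over 6 libraries), then *Mcm6* (5.52 ± 1.1), *Mcm4* (8.21 ± 1.2), *Mcm7* (12.4 ± 1.5), *Mcm3* (15.7 ± 1.5) and *Mcm2* (16.1 ± 2.3). *Mcm3* and *Mcm2* did not differ beyond their spread. In replicate 3 the order was *Mcm7* (52.6), *Mcm5* (54.0), *Mcm6* (55.1) and *Mcm2* (58.1), with *Mcm4* (92.6) and *Mcm3* (134) above them. *Mcm7* stayed below *Mcm2* in all 3 libraries. *Mcm5* and *Mcm6*, the subunits with the lowest levels in replicates 1 and 2, had means between those of *Mcm7* and *Mcm2* in replicate 3 of 168FARN.

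*Rrm2* (chr12:25393106-25399011, plus strand), the S phase subunit of ribonucleotide reductase, was measured in 168FARN at 50.7, 46.5 and 597 CPM (WT), 55.7, 61.9 and 716 CPM (*Kmt2c* KO) and 46.6, 40.3 and 662 CPM (*Kmt2d* KO). Its log2 fold change was 3.72 ± 0.10 in 168FARN (edgeR adjusted p = 1.2e-11) and 2.46 ± 0.18 in 67NR (edgeR adjusted p = 2.3e-06). *Tyms* (chr5:30384742-30400157, minus strand) lay between 14 and 17.3 CPM in the 6 libraries of replicates 1 and 2 of 168FARN and between 158 and 164 CPM in replicate 3. It rose by 3.34 ± 0.08 there (edgeR adjusted p = 1.2e-11) and by 2.18 ± 0.11 in 67NR (edgeR adjusted p = 9.8e-08), where *Rrm1* had the smallest p of the 44 (2.13 ± 0.10, edgeR adjusted p = 9e-08). All 3 nucleotide genes were higher in both lines, at a median of 3.34 and 2.18.

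The clamp, its loader and the polymerases rose less, and all 10 of these genes were higher in both lines. *Pcna* (chr2:132074898-132079050, minus strand), the sliding clamp, reached 180, 163 and 671 CPM (WT), 161, 195 and 733 CPM (*Kmt2c* KO) and 199, 216 and 689 CPM (*Kmt2d* KO) in 168FARN. In 67NR it reached 169, 203 and 538 CPM (WT), 173, 225 and 520 CPM (*Kmt2c* KO) and 160, 151 and 559 CPM (*Kmt2d* KO). The log2 fold changes were 1.92 ± 0.10 (edgeR adjusted p = 1.6e-09) and 1.59 ± 0.12 (edgeR adjusted p = 1.2e-06). The clamp and its loader had medians of 1.75 in 168FARN and 1.42 in 67NR, and the polymerases and primase 2.32 and 1.43.

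Repair genes moved with the replication genes. The 6 homologous recombination genes were all higher in replicate 3, with medians of 1.95 in 168FARN and 1.45 in 67NR. *Brca1* (chr11:101350078-101413269, minus strand) stood in 168FARN at 9.25, 8.84 and 42.2 CPM (WT), 10.3, 9.98 and 47.5 CPM (*Kmt2c* KO) and 9.44, 9.04 and 37.9 CPM (*Kmt2d* KO). It rose by 2.17 ± 0.09 (edgeR adjusted p = 4.1e-10) and, in 67NR, by 1.55 ± 0.14 (edgeR adjusted p = 6e-06). *Brca2* (chr5:151325205-151372321, plus strand), which acts with *Palb2* in strand exchange, rose by 1.73 ± 0.14 (edgeR adjusted p = 1.7e-07) and 1.16 ± 0.13 (edgeR adjusted p = 1.8e-05). *Rad51ap1* (chr6:126873068-126889605, minus strand), which promotes strand pairing in recombination, went from 6.60 to 8.81 CPM in replicates 1 and 2 to 45.4 to 49.8 CPM in replicate 3 of 168FARN. Its log2 fold changes were 2.65 ± 0.10 (edgeR adjusted p = 2.6e-10) and 2.45 ± 0.14 (edgeR adjusted p = 2.6e-07), so that it stood among the largest in 67NR.

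A few genes departed from the pattern. *Cdt1* (chr8:125091915-125097028, plus strand), the licensing factor that is lost as S phase starts, was the only gene called lower in replicate 3 of 168FARN, by -0.68 ± 0.09 (edgeR adjusted p = 9.5e-06). Its replicates 1 and 2 lay between 115 and 146 CPM and its replicate 3 between 78.9 and 81.2 CPM, without overlap, and the difference shrank to -0.60, just under the threshold, without replicate 3 of *Kmt2d* KO cells. In 67NR *Cdt1* had 61.5, 52.5 and 116 CPM (WT), 76.7, 71.8 and 61.6 CPM (*Kmt2c* KO) and 58, 66.9 and 78.5 CPM (*Kmt2d* KO), with no common direction (0.39 ± 0.18, edgeR adjusted p = 0.093).

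*Gins3* (chr8:98157459-98168959, plus strand), a subunit of the GINS complex, was the other replication gene that stayed apart. In 168FARN it was at 21.3, 21.9 and 22.3 CPM in WT cells, a log2 fold change over all genotypes of 0.17 ± 0.09 (edgeR adjusted p = 0.10), while its partner *Gins1* rose by 2.04 ± 0.12 (edgeR adjusted p = 9.6e-09). Per kb of exon, *Gins3* went from 10.8 to 12.3 CPM and *Gins1* from 6.58 to 26.9 CPM. Its promoter holds one of the E2F strings printed with those of *Cdc6* and *Mcm5*. Over the 13 genes with a match the median log2 fold change was 2.10 in 168FARN and 1.22 in 67NR, and over the 23 without one 2.29 and 1.55.

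*Atr* (chr9:95758016-95852063, plus strand), which senses single-stranded DNA at stalled forks, was not called in either line (-0.25 ± 0.12 in 168FARN, edgeR adjusted p = 0.082, and -0.04 ± 0.11 in 67NR, edgeR adjusted p = 0.79). *Atm* (chr9:53247254-53344845, minus strand), the kinase activated by double-strand breaks, rose by 0.78 ± 0.12 in 168FARN (edgeR adjusted p = 7.2e-05) but was under the fold threshold in 67NR (0.26 ± 0.10, edgeR adjusted p = 0.043). Without replicate 3 of *Kmt2c* KO cells the value for *Atm* in 168FARN was 0.58. *Chek1*, the kinase downstream of *Atr*, rose by 2.68 ± 0.12 (edgeR adjusted p = 7.7e-10) and 1.79 ± 0.11 (edgeR adjusted p = 3.3e-07).

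The gap between collections was wider in 168FARN than in 67NR for much of the list. In a test added after the data were seen, of the difference between the lines in the replicate 3 difference, 23 of 44 genes were called where 43.4% of 13882 genes were called, 19.6% higher and 23.8% lower. Of the 23, 22 had the larger rise in 168FARN (16 replication and 6 repair genes), and *Cdt1* differed the other way. *Mcm5* (2.19 ± 0.207, edgeR adjusted p = 1.2e-07), *Cdc6* (2.14 ± 0.25), *Mcm6* (2.10 ± 0.26), *Mcm10* (1.63 ± 0.20), *Mcm4* (1.63 ± 0.19) and *Pola1* (1.52 ± 0.151), the catalytic subunit of DNA polymerase alpha, led the list. *Cdt1* differed by -1.08 ± 0.208 (edgeR adjusted p = 0.00023). Across the 44 genes the values in the lines correlated at a Pearson's r of 0.798 and a Spearman's rho of 0.753, given as a description because genes of one set of libraries are not independent. Whether collections with the same number came from the same days in both lines is not given in the sources used here.

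**Figure D2:**
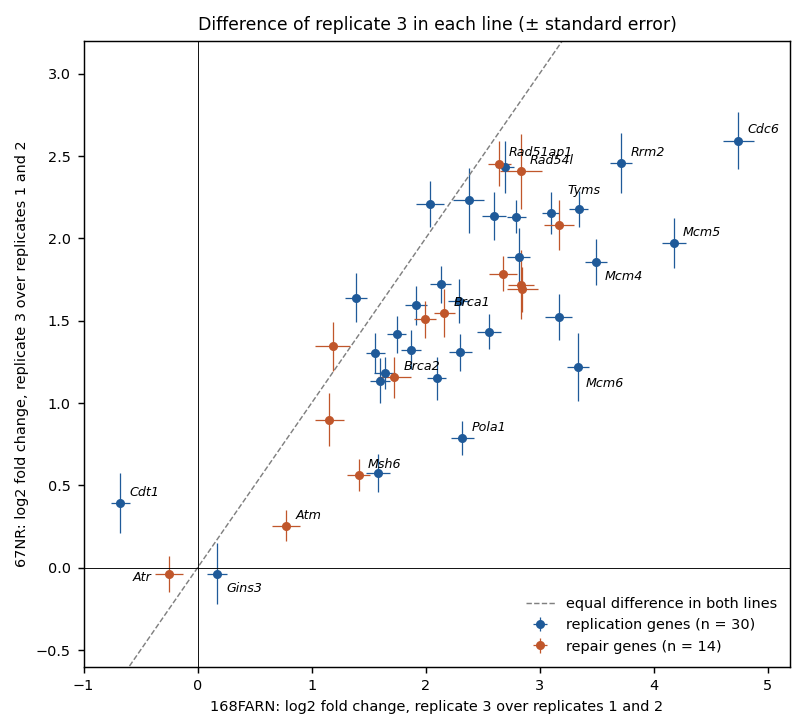
Log2 fold change of replicate 3 against replicates 1 and 2 for each of the 44 genes in 168FARN (horizontal axis) and 67NR (vertical axis), with bars of ± SE, coloured by list. The dashed line marks equal values. Most points lie below it, *Cdc6* and *Mcm5* farthest to the right, and *Gins3*, *Atr* and *Atm* lie near the origin with *Cdt1* to its left.

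Other genes of the same pathways went the same way. Among 40 further replication genes, 33 were higher in replicate 3 of 168FARN and 29 in 67NR, and none was lower. Of all tested genes, 22.4% were higher and 25.9% lower in 168FARN, and 15.3% and 13.4% in 67NR. *Orc1*, the origin recognition subunit whose level follows the cell cycle, rose by 3.59 in 168FARN and 1.62 in 67NR. Of 37 further homologous repair genes, 22 were higher and 2 lower in 168FARN, and 17 were higher and 2 lower in 67NR. Of 8 end-joining genes, which mend breaks without a template, 1 was higher in 168FARN and none in 67NR. All 6 proliferation markers were higher in both lines, among them *Mki67* (2.02 and 2.09), and their summed level went from 639 to 847 CPM to 2637 to 2980 CPM in 168FARN. In 67NR it went from 272 to 904 CPM to 1982 to 2296 CPM. *E2f1* rose by 1.30 and 1.07, within a list of 19 E2F and RB genes of which 13 were higher and 2 lower in 168FARN and 9 were higher in 67NR.

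Markers of other cell types were measured beside this difference. Leukocyte markers summed to at most 4.2 CPM and endothelial markers to at most 5.1 CPM in every library. Of 6 epithelial markers only *Krt8* exceeded 1 CPM in 168FARN, and the sum went from 97.7 to 124 CPM to 286 to 390 CPM in replicate 3. In 67NR the sum went from 1950 to 2030 CPM to 3238 CPM (WT), from 419 to 470 CPM to 751 CPM (*Kmt2c* KO) and from 720 to 756 CPM to 1501 CPM (*Kmt2d* KO). The 6 mesenchymal markers summed to 9698 to 14388 CPM in replicates 1 and 2 of 168FARN and to 7269 to 10016 CPM in replicate 3. In 67NR their sum was 5858 to 5987 CPM against 3176 CPM in replicate 3 of WT cells, 4234 to 4413 CPM against 5541 CPM (*Kmt2c* KO) and 3962 to 3992 CPM against 5572 CPM (*Kmt2d* KO). The part of these shifts in the levels of the 44 genes was not tested.

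The study's question was what loss of *Kmt2c* or *Kmt2d*, which encode H3K4 methyltransferases, changes in these cells. In 168FARN, none of the 44 genes was called in *Kmt2c* KO against WT cells, where 0.359% of 12253 genes were called, and 1 had an unadjusted p under 0.05. None was called in *Kmt2d* KO against WT cells either (0.286% of all genes, none at an unadjusted p under 0.05), nor between the KOs (0.253%, 1 at an unadjusted p under 0.05). DESeq2 called none in all 3 comparisons. Both KO comparisons used the same WT libraries. The replicate number as a block left 0 calls as well, with 7.23%, 5.9% and 5.33% of all genes called. In replicates 1 and 2 alone, 1 gene was called in the first comparison (*Gins2*, 0.65, where 14.5% of all genes were called), 2 in the second (*Rad54l*, 0.92, and *Mcm6*, 0.61, 11%) and 1 between the KOs (*Atr*, -0.65, 9.29%). The medians over the 44 with all libraries were 0.13, 0.05 and 0.09.

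In replicate 3 of 168FARN, *Brca1* ranged from 37.9 to 47.5 CPM, *Tyms* from 158 to 164 CPM and *Rad51ap1* from 45.4 to 49.8 CPM over the genotypes. Other genes had wider gaps, in each collection. *Gins2* was at 8.06 CPM in *Kmt2c* KO and 4.01 CPM in WT cells of replicate 1. *Mcm6* was at 30.9 CPM in *Kmt2d* KO and 18.9 CPM in WT cells of replicate 2. In replicate 3, *Pola1* was at 170 CPM in *Kmt2c* KO and 114 CPM in WT cells, and *Mcm4* at 383 against 270 CPM. In *Kmt2c* KO cells 35 of 44 genes lay above WT and 9 below in replicate 3. In replicates 1 and 2, 25 and 26 lay above and 19 and 18 below. *Gins3* had the smallest p of the 44 in the *Kmt2c* KO comparison, at 29.7, 31.6 and 35.4 CPM against 21.3, 21.9 and 22.3 CPM in WT cells, without overlap. Its log2 fold change was 0.56 ± 0.15 (edgeR adjusted p = 0.38, and 0.0072 with the replicate block, still under the fold threshold). Groups that do not overlap are common in this comparison, with 11% of all genes in that state against 1 of the 44.

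In 67NR, 2 of the 44 genes were called in *Kmt2c* KO against WT cells, where 35.3% of 13665 genes were called, 17.9% higher and 17.4% lower. Because 67NR WT cells were not named as an sgRNA control, KO and the handling of KO pools cannot be told apart in this line. *Gins3* was higher, at 21.4, 21.1 and 15 CPM in *Kmt2c* KO against 8.97, 9.53 and 14.7 CPM in WT cells (0.80 ± 0.24, edgeR adjusted p = 0.032). In replicate 3 the levels were close. *Atm* was lower, at 30.6, 31.1 and 38.6 CPM against 44.8, 52.1 and 58.3 CPM (-0.63 ± 0.16, edgeR adjusted p = 0.014), and its groups did not overlap, a state shared by 47.3% of all genes in this comparison and 2 of the 44. The call on *Gins3* was lost without replicate 1 of WT (adjusted p = 0.105), replicate 2 of WT (0.101) or replicate 2 of *Kmt2c* KO cells (0.103), and *Atm* came under the fold threshold without replicate 3 of WT or replicate 1 or 2 of *Kmt2c* KO cells.

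Fitting the replicate number as a block took up the gap between collections, and 16 of the 44 genes were then called, 13 higher and 3 lower, where 41.3% of all genes were called, 21.3% higher and 19.9% lower. These were 8 of 30 replication and 8 of 14 repair genes. Cell type markers moved with genotype too. In 67NR the epithelial sum spanned 1950 to 3238 CPM (WT), 419 to 751 CPM (*Kmt2c* KO) and 720 to 1501 CPM (*Kmt2d* KO). The median log2(CPM + 1) of the 6 mesenchymal markers spanned 4.12 to 4.87, 6.84 to 7.40 and 6.59 to 7.10 in the same order. Their sum went the other way in replicates 1 and 2, at 5858 to 5987, 4234 to 4413 and 3962 to 3992 CPM. In replicate 3 it was 3176, 5541 and 5572 CPM, so these markers did not share a direction. The part of the cell type markers in the KO values of the 44 genes was not tested. *Fanci* (chr7:86536815-86595151, plus strand), the partner of *Fancd2* in crosslink repair, was at 10.7, 9.79 and 26 CPM in *Kmt2c* KO against 3.34, 2.79 and 10.7 CPM in WT cells (1.60 ± 0.18, edgeR adjusted p = 2e-05 with the block, 0.14 without it). It shares 14.9% of its exon bases with *Polg* on the other strand, and whether the counting used strand is not known here. *Rrm2* was at 81.2, 101 and 313 CPM against 26.9, 29.7 and 243 CPM (1.24 ± 0.23, edgeR adjusted p = 0.0013 with the block), and *Rrm1* at 106, 102 and 397 CPM against 48.4, 53.1 and 233 CPM (0.95 ± 0.13, edgeR adjusted p = 0.0001). Both ribonucleotide reductase genes were higher in all 3 collections.

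The genes lower with the block were *Chek1*, *Mcm6* and *Atm*. *Chek1* (chr9:36516067-36534650, minus strand) was at 25.1, 28.8 and 85.3 CPM in *Kmt2c* KO against 75.8, 85.5 and 244 CPM in WT cells (-1.56 ± 0.14, edgeR adjusted p = 3.3e-06 with the block, 0.14 without it). It was lower in each of the 3 collections by a similar ratio. *Mcm6* (chr1:130228168-130256233, minus strand) was at 58.4 and 60.5 CPM against 113 and 116 CPM in replicates 1 and 2, but at 139 against 149 CPM in replicate 3 (-0.71 ± 0.26, edgeR adjusted p = 0.043 with the block), a call lost in 5 of the 6 fits without 1 of these libraries. *Brca1* was higher with the block (0.74 ± 0.19, edgeR adjusted p = 0.0062). *Cdc6* (0.14 ± 0.22), *Pcna* (0.05 ± 0.14), *Tyms* (0.00 ± 0.14), *Mcm2* (-0.40 ± 0.15), *Brca2* (-0.26 ± 0.16), *Rad51ap1* (0.58 ± 0.17) and *Atr* (0.32 ± 0.12) were not called with it.

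In *Kmt2d* KO against WT cells of 67NR, *Gins3* alone was called without the block, where 25.5% of all genes were called, 13.9% higher and 11.6% lower. It was at 22.5, 20.2 and 16.9 CPM against the same WT values of 8.97, 9.53 and 14.7 CPM (0.85 ± 0.24, edgeR adjusted p = 0.035). Its groups did not overlap, as for 38.1% of all genes and 3 of the 44, and the call was lost without replicate 1 of WT (adjusted p = 0.11), replicate 2 of WT (0.10) or replicate 1 of *Kmt2d* KO cells (0.106). *Atr* was at 79.7, 81.4 and 79.9 CPM against 58.5, 70.9 and 55.6 CPM (0.38 ± 0.14, edgeR adjusted p = 0.092), under the fold threshold, as was *Atm* (-0.41 ± 0.16, edgeR adjusted p = 0.099). With no fold threshold these 3 genes were called, and 30.1% of all genes.

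With the block, 13 of the 44 genes were called, 3 higher and 10 lower, where 32.7% of all genes were called, 17.4% higher and 15.4% lower. All 6 MCM2-7 genes were among the 10. *Mcm6* was lower by -1.10 ± 0.27 (edgeR adjusted p = 0.0089), *Mcm5* by -1.02 ± 0.19 (0.0015) and *Mcm2* by -0.80 ± 0.15 (0.0015). *Mcm3* (-0.80), *Mcm7* (-0.74), *Mcm4* (-0.70), *Cdc6* (-0.74 ± 0.23, edgeR adjusted p = 0.022), *Rfc5* (-0.68), *Pole* (-0.60) and *Chek1* (-1.07 ± 0.14, edgeR adjusted p = 0.0001) were the others. The 3 higher genes were *Fanci* (1.0 ± 0.17, edgeR adjusted p = 0.00097), *Gins3* (0.85) and *Rrm2* (0.79 ± 0.23, edgeR adjusted p = 0.018). *Pcna* (-0.14 ± 0.14), *Tyms* (-0.20 ± 0.14), *Brca1* (0.18 ± 0.19), *Brca2* (-0.52 ± 0.16), *Rad51ap1* (0.17 ± 0.17), *Atm* (-0.41 ± 0.12) and *Atr* (0.39 ± 0.12) were not called. *Kmt2c* and *Kmt2d* KO values rest on the same WT libraries.

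**Figure D3:**
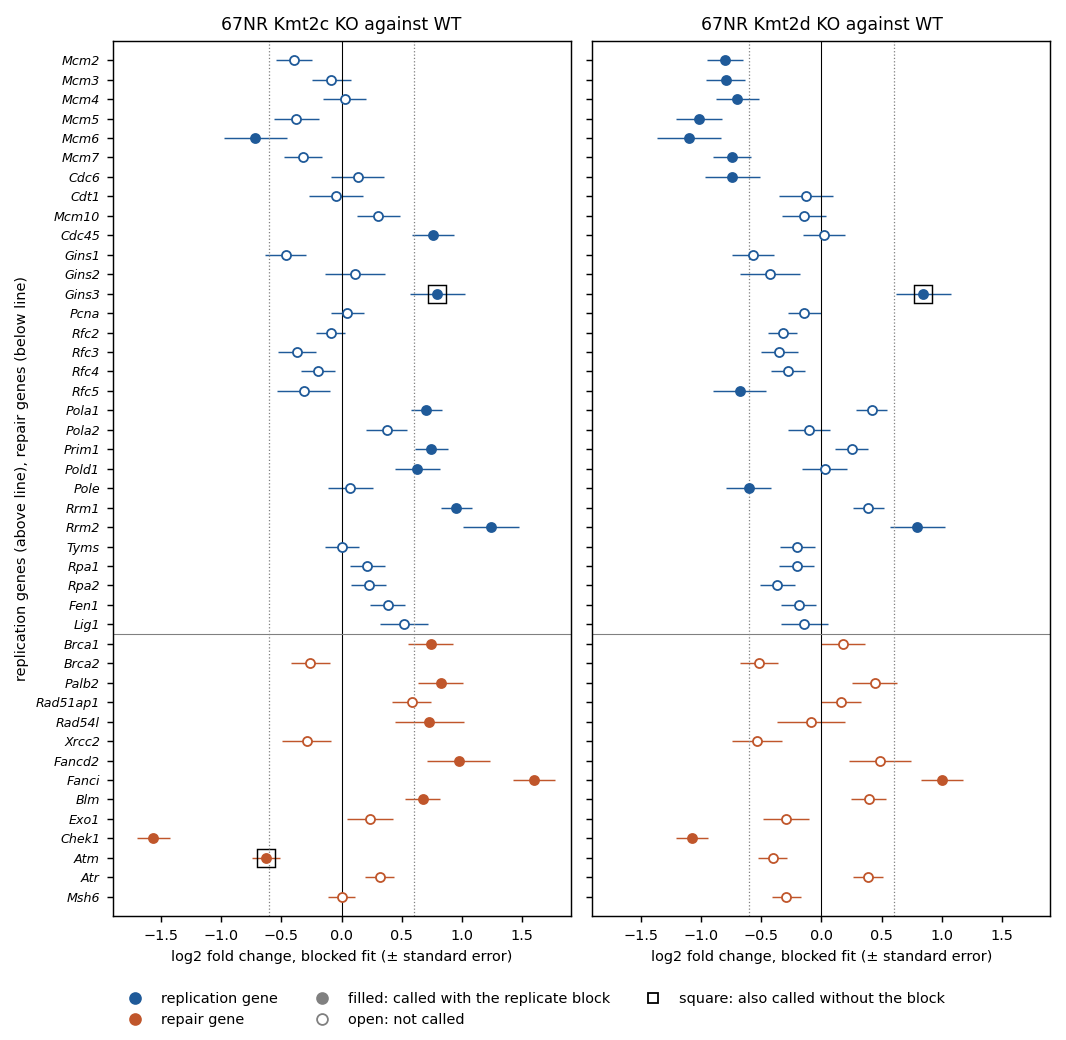
Log2 fold change ± SE of each of the 44 genes in 67NR *Kmt2c* KO and *Kmt2d* KO cells against WT cells, fitted with the replicate number as a block. Filled symbols are called in that fit and squares are also called without the block. *Chek1* is low and *Fanci* and *Gins3* are high in both comparisons, and the MCM2-7 genes lie lowest together in *Kmt2d* KO cells.

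The helicase gap in *Kmt2d* KO cells was widest in replicates 1 and 2. *Mcm6* was at 39 and 36.2 CPM there against 113 and 116 CPM in WT cells, but at 143 against 149 CPM in replicate 3. *Mcm5* was at 13.2 and 12.8 CPM against 35.8 and 31.4 CPM, and at 74.4 against 95 CPM in replicate 3. *Cdc6* was at 3.09 and 3.41 CPM against 7.34 and 7.21 CPM, and at 31.6 against 32.6 CPM. *Mcm3*, *Mcm2* and *Mcm4* were still lower in replicate 3 (229 against 311 CPM, 96.5 against 125 CPM and 170 against 205 CPM), and all 6 MCM2-7 genes were below WT there, by less on the log2 scale than in replicates 1 and 2.

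A test of this difference, added after the data were seen, asked whether the KO effect in replicate 3 differed from that in replicates 1 and 2. For *Kmt2d* KO cells 13 genes were called, 10 with a higher and 3 with a lower effect in replicate 3, where 12.7% of all genes were called, 5.96% higher and 6.7% lower. *Mcm6* differed most (1.54 ± 0.191, edgeR adjusted p = 9.8e-05), followed by *Gins2* (1.17), *Cdc6* (1.12), *Rfc5* (1.04) and *Mcm5* (1.02), and *Gins3* differed the other way (-1.0 ± 0.246). None of the 14 repair genes was called. For *Kmt2c* KO cells 13 genes were called, 1 higher (*Mcm6*, 0.84 ± 0.19) and 12 lower, where 19.8% were called, 9% higher and 10.8% lower. *Rad54l* (-1.55), *Fancd2* (-1.40), *Rrm2* (-1.32 ± 0.212) and *Cdt1* (-1.29 ± 0.215) led these. Replicate 3 is 1 library per genotype, so each such value rests on a single KO and a single WT library. In 168FARN the same test called none for *Kmt2c* KO cells (11.2% of all genes). For *Kmt2d* KO cells it called *Rad54l* alone (-1.26 ± 0.32, where 2.6% of all genes were called).

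When only replicates 1 and 2 were fitted, also added after the data were seen, 18 genes were called in each 67NR KO against WT, 15 higher and 3 lower for *Kmt2c* (44.2% of all genes called, 23% higher and 21.2% lower) and 4 higher and 14 lower for *Kmt2d* (35.9%, 19% higher and 16.8% lower). In this fit *Rrm2* was higher in both KOs (1.68 and 1.05), as were *Fanci* (1.73 and 0.94), *Fancd2* (1.44 and 0.80) and *Gins3* (1.20 in each), and *Chek1* (-1.59 and -1.25) and *Mcm6* (-0.95 and -1.62) were lower in both. These 6 genes were picked after their values were seen, and share the WT libraries.

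The KOs of 67NR did not differ from each other in any of the 44 genes without the block (1.41% of all genes called, and none of the 44 at an unadjusted p under 0.05, and none by DESeq2). With it, 8 replication genes were at higher levels in the *Kmt2c* KO, where 7.29% of all genes were called, 1.59% higher and 5.7% lower. *Cdc6* had 7.65, 7.88 and 38.4 CPM against 3.09, 3.41 and 31.6 CPM (0.88 ± 0.23, edgeR adjusted p = 0.045). *Cdc45* (0.74 ± 0.18, edgeR adjusted p = 0.031), which binds the helicase as it is turned on, *Mcm4* (0.72) and *Mcm3* (0.71 ± 0.17, edgeR adjusted p = 0.029), *Pole* (0.68), *Lig1* (0.66), *Mcm5* (0.64) and *Pold1* (0.60) were the others. Leaving out 1 library from this blocked fit gave between 0 and 19 calls, and replicates 1 and 2 alone gave 24, all higher in the *Kmt2c* KO (12.6% of all genes, 5% higher).

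Few further genes of these pathways were called in 67NR without the block. Of 40 other replication genes, 2 were higher and none lower in each KO, *Pold4* and *Pole2*, small subunits of DNA polymerases delta and epsilon. Among all genes, 35.3% (*Kmt2c* KO) and 25.5% (*Kmt2d* KO) were called. *Pold4* lay between 7.07 and 7.77 CPM in *Kmt2c* KO cells, between 4.74 and 5.37 CPM in *Kmt2d* KO cells and between 1.0 and 1.83 CPM in WT cells, without overlap (2.42 ± 0.26, edgeR adjusted p = 0.00014, and 1.86 ± 0.26, edgeR adjusted p = 0.0011). *Pole2* was at 55.9 to 110 CPM and 34.9 to 89.9 CPM against 13.3 to 34.6 CPM (1.9 ± 0.5, edgeR adjusted p = 0.016, and 1.46 ± 0.49, edgeR adjusted p = 0.061). Its groups did not overlap either, though barely so in *Kmt2d* KO cells. Groups did not overlap for 47.3% (*Kmt2c* KO) and 38.1% (*Kmt2d* KO) of all genes. With the block, 5 of the 40 rose and 3 fell after loss of *Kmt2c*, and 4 rose and 6 fell after loss of *Kmt2d*, with *Orc1* in neither set. Of all genes, 41.3% were then called for *Kmt2c* (21.3% higher, 19.9% lower) and 32.7% for *Kmt2d* (17.4% higher, 15.4% lower).

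Of 37 other homologous repair genes, 5 rose and 2 fell after loss of *Kmt2c*, and 1 rose and 2 fell after loss of *Kmt2d*, smaller shares than the 35.3% and 25.5% of all genes called. *Fance*, of the Fanconi anaemia core complex, was lower in *Kmt2d* KO cells (-0.62 ± 0.17, edgeR adjusted p = 0.027). *Rad51d*, which acts in recombination, was higher in both (0.76 ± 0.13, edgeR adjusted p = 0.0021, and 0.69 ± 0.13, edgeR adjusted p = 0.0055), and *Rad9a* in *Kmt2c* KO cells (0.87 ± 0.18, edgeR adjusted p = 0.0048). No end-joining gene was called without the block.

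Of the 19 E2F and RB genes, 3 (15.8%) rose after loss of *Kmt2c* and 4 (21.1%) after loss of *Kmt2d*, and none fell, beside 17.9% and 13.9% of all genes called higher. *Ccne2*, a cyclin of the entry into S phase, was at 14.8 to 20.9 CPM (*Kmt2c* KO) and 11.2 to 16.6 CPM (*Kmt2d* KO) against 3.63 to 7.61 CPM (WT). Its log2 fold changes were 1.76 ± 0.31 (edgeR adjusted p = 0.0024) and 1.51 ± 0.31 (edgeR adjusted p = 0.0081). Its groups did not overlap, as for 47.3% and 38.1% of all genes. *Ccne1* was higher in *Kmt2c* KO cells (1.72 ± 0.48, edgeR adjusted p = 0.022), and *Rb1*, which restrains E2F factors, in *Kmt2d* KO cells (1.03 ± 0.26, edgeR adjusted p = 0.021). *E2f1* was higher in *Kmt2c* KO cells with the block only (0.80, edgeR adjusted p = 0.0021). Proliferation markers gave no call without the block. With it 5 of 6 were higher in the *Kmt2c* KO and 1 of 6 in the *Kmt2d* KO, beside 21.3% and 17.4% of all genes. *Mki67* lay at 43.4, 47.7 and 533 CPM in replicates 1, 2 and 3 of WT cells, against 443, 383 and 812 CPM (*Kmt2c* KO) and 226, 224 and 587 CPM (*Kmt2d* KO). With the block its log2 fold changes were 2.23 (edgeR adjusted p = 0.018) and 1.44 (edgeR adjusted p = 0.085). In replicates 1 and 2, the MCM2-7 genes of *Kmt2d* KO cells were thus at lower levels than in WT cells and *Mki67* at a higher one.

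The lines were then compared in WT cells on a common scale, with CPM normalized over all 18 libraries. Only *Gins3* was called, higher in 168FARN at 22, 22.5 and 22.7 CPM against 9.15, 9.8 and 15 CPM in 67NR (0.99 ± 0.21, edgeR adjusted p = 0.0014), where 39.2% of 13882 genes were called, 16.9% higher. *Chek1* was at 11.9, 8.4 and 69.8 CPM in 168FARN against 77.4, 87.7 and 249 CPM in 67NR, and *Mcm6* at 18, 19.4 and 206 CPM against 116, 119 and 152 CPM. Neither was called (-2.20 ± 1.04, edgeR adjusted p = 0.11, and -0.67 ± 1.10, edgeR adjusted p = 0.68). Within a line both ranged widely between collections.

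In replicates 1 and 2 alone, 17 genes differed between the WT lines, 7 higher and 10 lower in 168FARN, where 54.3% of all genes were called, 25.6% higher and 28.6% lower. *Chek1* (-3.0 ± 0.17, edgeR adjusted p = 3.4e-12), *Mcm6* (-2.62 ± 0.13, edgeR adjusted p = 3.8e-13), *Cdc6* (-1.63) and *Mcm5* (-1.59) were lower in 168FARN, and *Gins3* (1.26), *Rad51ap1* (1.18), *Cdt1* (1.05) and *Rrm2* (0.82) were higher. In replicate 3, a single WT library per line, *Mcm6*, *Cdc6*, *Mcm5* and *Cdt1* went the other way. Per kb of exon, *Mcm6* was there at 47.1 CPM in 168FARN against 34.9 CPM in 67NR, and *Cdc6* at 10.6 against 6.36 CPM. *Mcm5* was at 46.8 against 27.7 CPM and *Cdt1* at 36.7 against 53.9 CPM. *Chek1*, *Gins3*, *Rad51ap1* and *Rrm2* kept their direction. The line cannot be told apart here from the kind of control (an sgRNA control or plain WT cells) or from the table in which the counts were made.

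**Figure D4:**
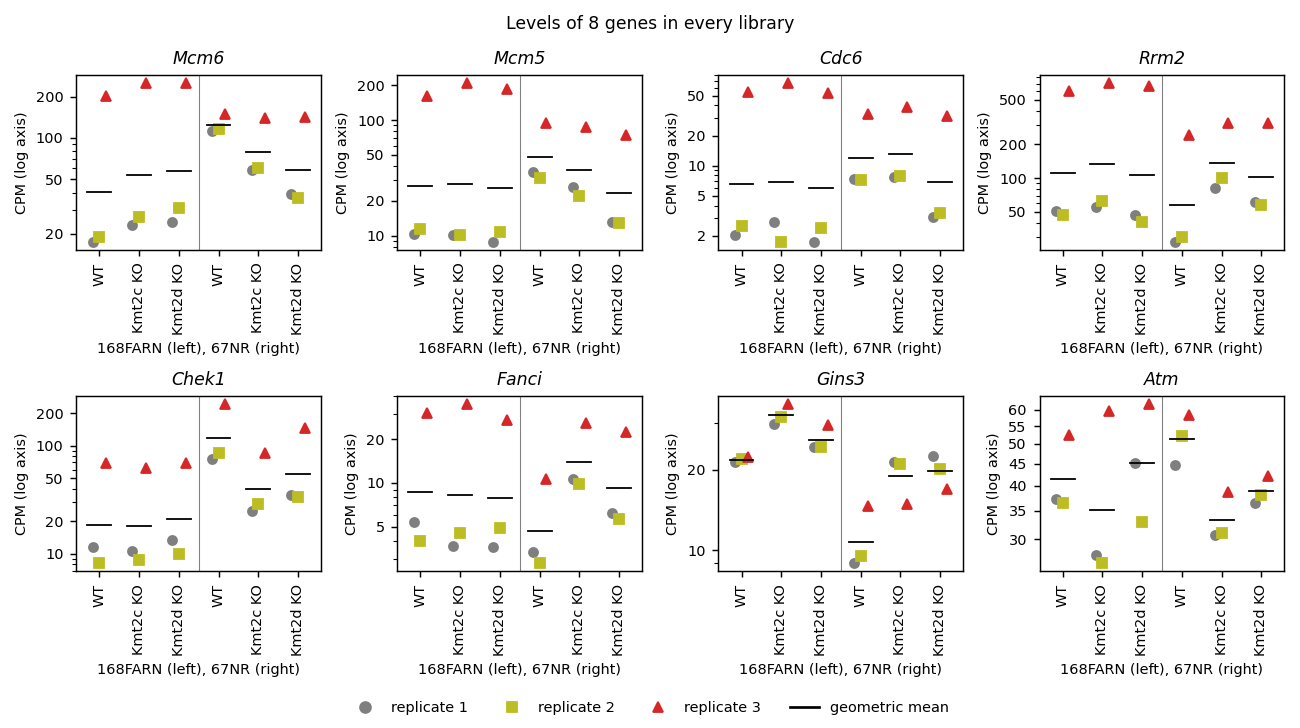
CPM on a log axis of *Mcm6*, *Mcm5*, *Cdc6*, *Rrm2*, *Chek1*, *Fanci*, *Gins3* and *Atm* in each library of the 6 groups, with the geometric mean of each group as a bar. CPM was scaled within each line, so groups compare within a line. Replicate 3 lies far above the other replicates for most of these genes, and least so for *Gins3* and *Atm*.

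Whether KO and WT cells differed by other amounts in the lines was tested as an interaction. The kind of control also differed between the lines and cannot be told apart from the line here. Without the block none of the 44 was called for either KO, where 16% (*Kmt2c*) and 10.6% (*Kmt2d*) of 13882 genes were called, and none of the 44 had an unadjusted p under 0.05. With the block, 11 were called for *Kmt2c*, 5 higher and 6 lower in 67NR relative to 168FARN (34.6% of all genes, 17.4% higher and 17.2% lower), and 13 for *Kmt2d*, 2 higher and 11 lower (28.4%, 15.4% higher and 13% lower). Replicates 1 and 2 alone gave 20 for *Kmt2c* (38% of all genes) and 19 for *Kmt2d* (32.5%). *Chek1* was among them for both KOs (-1.59 ± 0.177, edgeR adjusted p = 2e-06, and -1.30 ± 0.178, edgeR adjusted p = 3.3e-05). *Fanci* differed in the other direction (1.55 ± 0.257, edgeR adjusted p = 0.00015, and 1.09 ± 0.262, edgeR adjusted p = 0.0046).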

How the data were processed

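The authors made strand-specific mRNA libraries (KAPA mRNA HyperPrep) and aligned the reads to mm9 with STAR in the VIPER pipeline, and the deposited values are raw read counts per gene symbol, 1 table per line. The version of STAR, the annotation and the strand setting of the counting are not given in the sources used here. Of the 44 genes, 14 share exon bases with another gene, mostly on the opposite strand (*Gins2* 67.3%, *Fen1* 78.8%), so their counts are less certain.

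The members and lists were chosen with earlier results of these data known. Each table was filtered (filterByExpr) and TMM-normalized, and edgeR 4.0.16 (R 4.3.3) quasi-likelihood tests with robust dispersion were fitted over all genes, 12253 in 168FARN, 13665 in 67NR and 13882 in both, with genotype as the only factor. Replicate 3 was compared with an added indicator. Calls needed a Benjamini-Hochberg adjusted p below 0.1 and a log2 fold change beyond 0.6 in either direction. SE is the log2 fold change over the square root of F. The scripts were tested on simulated counts. Alternatives were DESeq2 1.42.0 or its size factors, no filter, other thresholds, only the 6 libraries compared, leaving out each library, and the replicate number as a block. DESeq2 with that block, left-out libraries within it, fits of replicates 1 and 2 alone and both tests of collections were added after seeing the data.

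The replicate numbers were used as pairs, as the study treated collection time as a batch. Deviations from the group means correlated at 0.751 to 0.930 between same-numbered libraries of different genotypes in 168FARN and at 0.490 to 0.834 in 67NR. This mainly sets replicate 3 apart: replicates 1 and 2 of different genotypes also correlated, at 0.720 to 0.824 and 0.397 to 0.734, so those numbers were not told apart. In 67NR, replicates 1 and 2 of *Kmt2d* KO cells correlated less with same-numbered WT and *Kmt2c* KO libraries (0.490 to 0.591). With the swapped numbers they correlated at 0.611 to 0.734. The blocked 67NR fits rest on the numbers as given, and other pairs were not tested. Named were *Mcm2*, *Cdc6*, *Pcna*, *Rrm2*, *Tyms*, *Brca1*, *Brca2*, *Rad51ap1*, *Atm* and *Atr*, up to 3 called genes per direction with the smallest p (from the blocked fit where none was called), up to 2 from each further list, and *Orc1*, *E2f1* and *Mki67*. A few genes that this rule names are not reported here. Other genes were named after their values were seen. Positions are 1-based in mm9 and matched by name for 44 of 44 genes. Promoters come from RefSeq (GRCm38.p6), and no coordinates were converted between builds.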

Additional observations from a re-analysis of the deposited data

Results flagged for a closer look

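The difference between replicate 3 and replicates 1 and 2 was not the same size in both lines. *Mcm5* (2.19 ± 0.207) and *Pola1* (1.52 ± 0.151) rose more in 168FARN, and *Cdt1* (-1.08 ± 0.208) differed in the opposite direction (edgeR tests of the difference, adjusted p from 1.2e-07 to 0.00023). *Cdt1* was lower in replicate 3 for all 3 genotypes of 168FARN, and in 67NR for *Kmt2c* KO cells only.

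Some KO effects in 67NR differed between collections, in a test added after the gap had been seen and with 1 library per genotype in replicate 3. For *Kmt2c* KO cells the effect in replicate 3 minus that in replicates 1 and 2 was 0.84 for *Mcm6*, -1.32 for *Rrm2* and -1.29 for *Cdt1*. For *Kmt2d* KO cells it was 1.54 for *Mcm6*, 1.04 for *Rfc5*, -1.0 for *Gins3* and -0.71 for *Rrm2* (edgeR adjusted p from 9.8e-05 to 0.048). *Mcm6* thus differed in the same direction in both KOs, which share the WT libraries. In 168FARN *Rad54l* differed for *Kmt2d* KO cells (-1.26, edgeR adjusted p = 0.077).

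With the replicate block, KO effects differed between the lines for several genes. The *Kmt2c* KO effect in 67NR minus that in 168FARN was 1.55 for *Fanci*, 0.94 for *Prim1*, -1.59 for *Chek1* and -1.20 for *Mcm6*. The *Kmt2d* KO effect differed by 1.09 for *Fanci*, 0.79 for *Rrm2*, -1.30 for *Chek1* and -1.14 for *Mcm2* (edgeR adjusted p from 2e-06 to 0.041 over both). None of these was called without the block.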

How the results depend on the processing

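The replicate 3 comparisons gave 41 to 43 called genes in 168FARN and 38 to 42 in 67NR under the alternatives run, and in 168FARN *Cdt1* fell under the fold threshold without *Kmt2d* KO replicate 3 (-0.598) and *Atm* without *Kmt2c* KO replicate 3 (0.58). The main fits called 48.2% of all genes in 168FARN and 28.7% in 67NR. *Atr* in 67NR lay near 0 and changed sign when single libraries were left out (-0.117 to 0.0486). For KO comparisons, calls without the block were few and unstable. *Kmt2c* KO against WT in 67NR gave 2 calls, 5 with DESeq2, 16 with the replicate block, 16 with DESeq2 and the block, 18 in replicates 1 and 2 only, and 0 to 8 without 1 library. Of all genes, 35.3% were called, 37.1% with DESeq2, 41.3% with the block and 44.2% in replicates 1 and 2 only. *Kmt2d* KO against WT gave 1 call, 3 with no fold threshold, 13 with the block, 13 with DESeq2 and the block, 18 in replicates 1 and 2 only, and 0 to 9 without 1 library. The all-gene shares were 25.5%, 30.1% with no fold threshold, 32.7% with the block and 35.9% in replicates 1 and 2 only. *Kmt2c* KO against *Kmt2d* KO gave 0, 8 with the block, 11 with DESeq2 and the block, 24 in replicates 1 and 2 only, and 0 to 19 without 1 library in the blocked fit. Here 1.41% of all genes were called, 7.29% with the block and 12.6% in replicates 1 and 2 only. With the block, leaving out 1 library gave 11 to 18 calls for *Kmt2c* KO and 9 to 17 for *Kmt2d* KO cells. In 168FARN the KO comparisons gave 0 calls, 1, 2 and 1 in replicates 1 and 2 only, and 0 to 1 without 1 library in the blocked fit. Replicates 1 and 2 only gave calls on 14.5%, 11% and 9.29% of all genes. WT cells of the lines differed in 1 gene, 2 with DESeq2, 17 in replicates 1 and 2 only, and 1 to 3 without 1 library. Among all genes, 39.2% differed, and 54.3% in replicates 1 and 2 only. The interactions gave 0 calls, 11 (*Kmt2c*) and 13 (*Kmt2d*) with the block and 20 and 19 in replicates 1 and 2 only, and 0 to 1 for *Kmt2d* without 1 library. Shares of all genes were 16% and 10.6%, 34.6% and 28.4% with the block, and 38% and 32.5% in replicates 1 and 2 only. The block changed no other call on the members. The causes of these changes were not tested. Depth was lowest in 168FARN, where the smallest library held 14359760 reads, and 3 replicates per group limit the precision.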
